A study of Mus musculus with 12 samples.

Results

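The miR-148 and miR-152 family of the mouse comprises mmu-miR-148a-3p, mmu-miR-148b-3p and mmu-miR-152-3p, whose mature forms carry the same seed. They were 3 of the 637 miRNA entries counted in every library. The members were chosen by their shared seed and name after values of these libraries were known, foremost the level of mmu-miR-148a-3p in FAC against DFO, which had passed a test. The difference between FAC and DFO is therefore described for all members with no test, and mmu-miR-148a-3p is described with no test in every comparison that reuses FAC or DFO libraries.

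Small RNA was sequenced from exosomes released by ovarian granulosa cells of the mouse, with 3 libraries in each of 4 groups. All cells were acclimated for 24 h in medium without exosomes and then cultured for 48 h. CON cells received no addition, FAC cells received 100 µM ferric citrate, DFO cells received 100 µM ferric citrate and 100 µM deferoxamine mesylate, an iron chelator, and VE cells received 100 µM ferric citrate and 200 µM VITE, which is vitamin E, an antioxidant. Iron was thus present in FAC, DFO and VE alike, and neither deferoxamine nor VITE was given without iron. The study's methods describe taking mouse granulosa cells from ovaries of Kunming females primed with gonadotropin. Whether the 3 libraries of a group came from separate animals or cultures is not given in the sources used here, so p-values measure only the spread between libraries, which may be technical.

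A miRNA guides Argonaute proteins to messenger RNAs that pair with its seed, the bases near its 5′ end, and miRNAs with the same seed can pair with the same sites. The miR-148 and miR-152 family is known for repressing Dnmt1, the maintenance DNA methyltransferase, and miR-148a for repressing the low density lipoprotein receptor in liver. miR-148a is also among the abundant miRNAs of liver and of milk vesicles. Of a miRNA hairpin, the cell usually keeps the guide arm and degrades most of the other arm.

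The mature sequences show how little separates the members, and they are the reason the counts of the family have to be read together. They are given 5′ to 3′ from RefSeq, GRCm38.p6, with the seed, bases 2 to 8, in capitals.
mmu-miR-148a-3p: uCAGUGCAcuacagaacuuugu
mmu-miR-148b-3p: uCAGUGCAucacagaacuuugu
mmu-miR-152-3p: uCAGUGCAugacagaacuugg

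Counted from 1 at the 5′ end, mmu-miR-148b-3p differed from mmu-miR-148a-3p by C9U and U10C, with 20 of 22 bases identical. Over its 21 bases, mmu-miR-152-3p differed from mmu-miR-148a-3p by C9U, U10G and U20G, with 18 bases identical, and it was 1 base shorter. It differed from mmu-miR-148b-3p by C10G and U20G. All differences thus lay outside the seed. Of 1679 mature mouse sequences in the RefSeq table, these 3 alone held the seed CAGUGCA.

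The members lie on separate chromosomes of GRCm38.p6. The mature mmu-miR-148a-3p is at chr6:51269829-51269850 on the minus strand, and its gene Mir148a overlapped no other annotated gene, with Nfe2l3 the nearest protein-coding gene at 162760 bp. mmu-miR-148b-3p is at chr15:103285185-103285206 on the plus strand, within an intron of Copz1 in the same orientation. mmu-miR-152-3p is at chr11:96850439-96850459 on the plus strand, within an intron of Copz2 in the same orientation. Copz1 and Copz2 are paralogs that encode the zeta subunits of the COPI vesicle coat.

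Each library held 22631206 to 24845945 reads by the total that the count and RPM values imply, and 452021 to 7565362 of them were counted to miRNAs. miRNAs took 1.997 to 4.998% of a library in CON, 21.6 to 30.4% in FAC, 5.53 to 19.9% in DFO and 9.20 to 14.6% in VE. A level can therefore be read in 2 ways, and both are given here. Normalized CPM, counts per 1000000 miRNA counts after TMM composition factors (0.840 to 1.43), compares a member with the other miRNAs of its library, and RPM, the authors' reads per 1000000 of the whole library, compares it with all reads. In bulk exosome RNA, fewer vesicles or cells of a type and less RNA in each cannot be told apart on either scale.

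No miRNA is specific to granulosa cells, so the labelled cell type could be checked only loosely. Of 7 granulosa-linked miRNAs 5 had entries. Their summed level was 2102 to 3196 CPM in CON, 1517 to 3581 in FAC, 954 to 1695 in DFO and 1234 to 1703 in VE. mmu-miR-21a-5p carried most of this sum in every library, and mmu-miR-224-5p also had counts in all of them. mmu-miR-212-3p was counted only in FAC 1 and FAC 2, and mmu-miR-503-5p had 0 counts in DFO 3 and VE 3. Outside CON 1, FAC 1, FAC 2 and DFO 3, mmu-miR-132-3p had at most 2 counts. Of 5 blood cell markers, miR-451a carried nearly all of a sum of 50.3 to 804 CPM in CON, 341 to 643 in FAC, 8.96 to 647 in DFO and 662 to 3859 in VE, while mmu-miR-144-3p and mmu-miR-142a-3p had at most 1 count in any library. Of 3 epithelial markers, miR-375-3p carried most, outside DFO 1, of a sum of 4.72 to 350 CPM in CON, 66.2 to 283 in FAC, 14.5 to 76.6 in DFO and 407 to 693 in VE. mmu-miR-122-5p, known as the predominant miRNA of hepatocytes and singled out after its values were seen, made up 4.77 to 17.1% of the miRNA counts of every library. The joined entry of mmu-miR-486a-5p and mmu-miR-486b-5p, known from red blood cells, on none of these lists and also singled out after its values were seen, was far higher than the listed blood markers, at 2.68 to 5.46% of the miRNA counts in CON, 0.779 to 9.68% in FAC, 1.76 to 8.26% in DFO and 8.25 to 16.8% in VE. It was lowest in FAC 1, the library with the highest share of mmu-miR-148a-3p, and was the most counted entry of VE 1. The part of these other sources in the family's levels was not tested.

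mmu-miR-148a-3p was one of the most abundant miRNAs of these exosomes, and DFO held the lowest share of it. It took 9.75, 7.78 and 6.86% of the miRNA counts in CON 1 to 3, and 24.7, 13.9 and 8.14% in FAC 1 to 3. In DFO 1 to 3 it took 2.28, 3.18 and 4.45%, and in VE 1 to 3 it took 6.32, 8.71 and 7.67%. All 3 DFO libraries lay below all 9 others in this share, whereas FAC 3 lay among CON and VE libraries. It ranked 4 to 6 among all entries in CON, 1 to 6 in FAC, 8 to 9 in DFO and 5 to 7 in VE. FAC 1 was the only library in which it was the most counted entry.

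In normalized CPM, mmu-miR-148a-3p stood at 96687, 92620 and 75579 in CON, 88295 ± 11199 (SD, n = 3). FAC libraries held 218950, 97062 and 89428 CPM, 135150 ± 72676, of which FAC 1 and FAC 2 lay above every library of the other groups, FAC 2 by a small margin. DFO libraries held 23920, 27825 and 45912 CPM, 32552 ± 11733, and VE libraries held 63630, 93547 and 85154 CPM, 80777 ± 15431. The order of the group means was FAC, CON, VE and DFO, and FAC, CON and VE overlapped each other. DFO overlapped none of them, a pattern that 1.1% of the 547 tested entries showed with all DFO libraries below the 9 others. Counting error was small beside this spread, since the miRNA was read 35180 to 1869466 times per library.

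**Figure D1:**
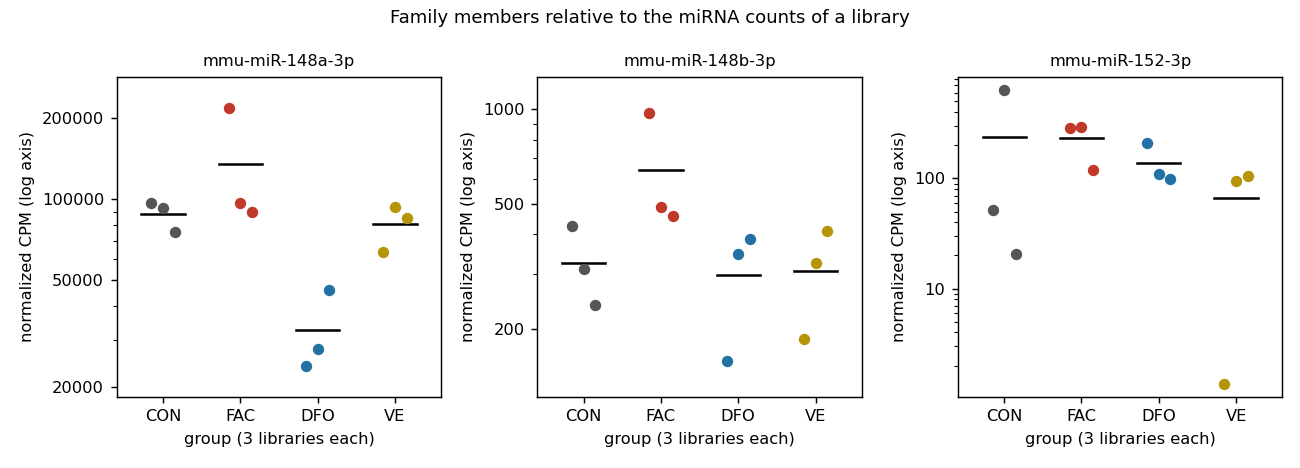
Normalized CPM of each family member (log axes, which differ between panels) in the 3 libraries of CON, FAC, DFO and VE, with points for libraries and bars for group means. The 3 DFO libraries of mmu-miR-148a-3p lie between 23920 and 45912 CPM, below all others, an order that holds relative to miRNA counts and not in RPM, and mmu-miR-152-3p spans 1.36 to 639.8 CPM.

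Relative to all library reads, mmu-miR-148a-3p showed another order. CON libraries held 4871, 1555 and 1945 RPM, 2790 ± 1813 (SD, n = 3), and FAC libraries held 75242, 30146 and 17960 RPM, 41116 ± 30176. DFO libraries held 2848, 6318 and 2464 RPM, 3877 ± 2123, and VE libraries held 5819, 10577 and 11178 RPM, 9191 ± 2936. All 3 FAC libraries lay above the 9 others on this scale, and DFO overlapped both CON and VE. mmu-miR-148a-3p and mmu-miR-148b-3p were 2 of the 59 entries, 10.8% of those tested, with FAC above all other libraries in RPM.

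mmu-miR-148b-3p was far less abundant, at ranks 43 to 107, and its FAC libraries were the highest on both scales. In normalized CPM it stood at 424, 311 and 239 in CON, 325 ± 93.4 (SD, n = 3), and at 972, 489 and 456 in FAC, 639 ± 289. DFO libraries held 158, 348 and 386 CPM, 297 ± 122, and VE libraries held 186, 325 and 410 CPM, 307 ± 113. The FAC libraries lay above all 9 others, as 2.01% of the tested entries did, while CON, DFO and VE overlapped throughout. The gap was narrow, since the lowest FAC library held 456 CPM and the highest other library 424 CPM, and in the plain share of miRNA counts no member had all FAC libraries above the 9 others.

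In RPM, mmu-miR-148b-3p stood at 21.4, 5.21 and 6.15 in CON, 10.9 ± 9.07 (SD, n = 3), and at 334, 151.8 and 91.6 in FAC, 192 ± 126. DFO libraries held 18.9, 78.9 and 20.7 RPM, 39.5 ± 34.2, and VE libraries held 17.0, 36.7 and 53.9 RPM, 35.9 ± 18.5. FAC was again apart, and DFO 2 alone came near its lowest library.

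mmu-miR-152-3p was the scarcest and least even member. Its counts were 63, 243 and 13 in CON, 2447, 2181 and 591 in FAC, 608, 607 and 131 in DFO, and 3, 262 and 332 in VE. In normalized CPM these were 51.6, 639.8 and 20.4 in CON, 237 ± 349 (SD, n = 3), and 287, 291 and 120.0 in FAC, 233 ± 97.5. DFO libraries held 209, 109 and 98.3 CPM, 139 ± 61.4, and VE libraries held 1.36, 95.5 and 104 CPM, 67.1 ± 57.1. CON 2, the library with the fewest miRNA counts, held the highest normalized CPM of all, so the CON mean rested on that library. VE 1, with 3 counts, was at the floor of detection used here (3 counts, 0.351 to 7.90 CPM across libraries; floors cover counting error only).

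In RPM, mmu-miR-152-3p stood at 2.60, 10.7 and 0.526 in CON, 4.62 ± 5.40 (SD, n = 3), and at 98.5, 90.5 and 24.1 in FAC, 71.0 ± 40.8. DFO libraries held 24.9, 24.7 and 5.28 RPM, 18.3 ± 11.3, and VE libraries held 0.124, 10.8 and 13.7 RPM, 8.21 ± 7.15. FAC lay above CON and VE, and FAC 3 lay just under the upper DFO libraries. In RPM, 31.4% of the tested entries had FAC and CON libraries apart, and 24.5% had FAC and VE libraries apart.

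**Figure D2:**
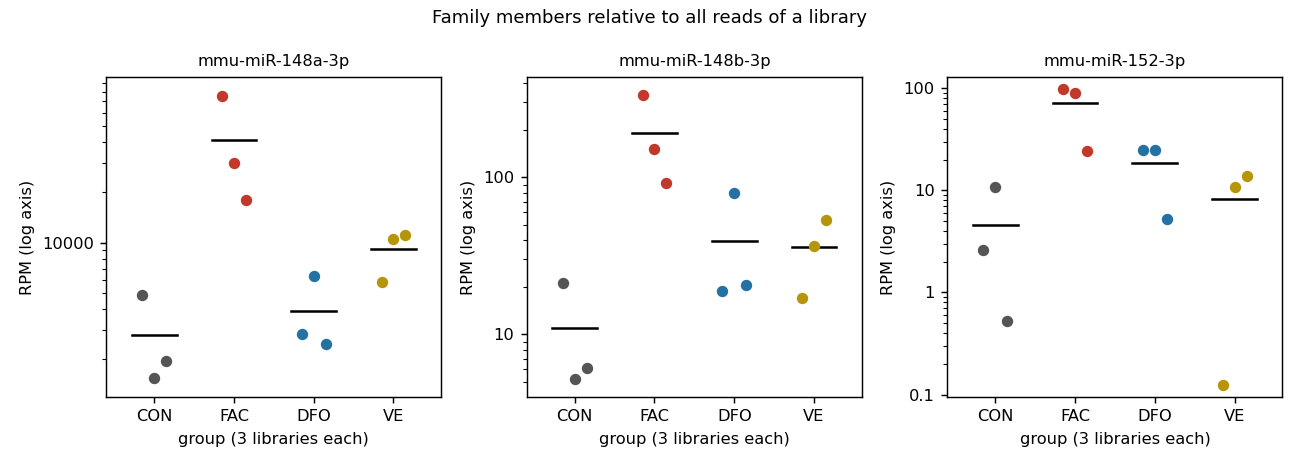
RPM of each family member (log axes, which differ between panels) in the 3 libraries of each group, with points for libraries and bars for group means. FAC holds the highest mean in all 3 panels, 41116, 192 and 71.0 RPM, in libraries where miRNAs took 21.6 to 30.4% of all reads.

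The ratio of members within a library does not depend on how the library is scaled. mmu-miR-148a-3p gave 98.4 to 99.7% of the family's counts in every library, so the family's total followed this member. Per read of mmu-miR-148b-3p there were 228, 298 and 316 reads of mmu-miR-148a-3p in CON, 281 ± 46.7 (SD, n = 3), and 225, 199 and 196 in FAC, 207 ± 16.1. The ratio was 151, 80.0 and 119 in DFO, 117 ± 35.5, and 343, 288 and 207 in VE, 279 ± 68.1. All DFO libraries lay below all 9 others, and FAC lay below CON with no overlap, while CON and VE overlapped. The gap between FAC and CON was narrow, with 225 in FAC 1 against 228 in CON 1. The share of other pairs of entries with such an order was not computed. The ratio of mmu-miR-148a-3p to mmu-miR-148b-3p includes the values that chose the family and is given with no test.

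Seen the other way, mmu-miR-148b-3p gave 0.292 to 1.249 reads per 100 reads of mmu-miR-148a-3p, with a median of 0.463. Whether some reads of mmu-miR-148a-3p were counted as mmu-miR-148b-3p, from which 2 bases separate it, was not tested. The ratio of mmu-miR-148a-3p to mmu-miR-152-3p was far wider, from 114 in DFO 1 to 46957 in VE 1. It was 1874, 145 and 3697 in CON, 764, 333 and 745 in FAC, 114, 256 and 467 in DFO, and 46957, 980 and 816 in VE. DFO and FAC both lay below VE with no overlap in this ratio, and CON overlapped every other group. The gap between FAC and VE was narrow, with 764 in FAC 1 against 816 in VE 3. For this ratio too, the share of other pairs with such an order was not computed.

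**Figure D3:**
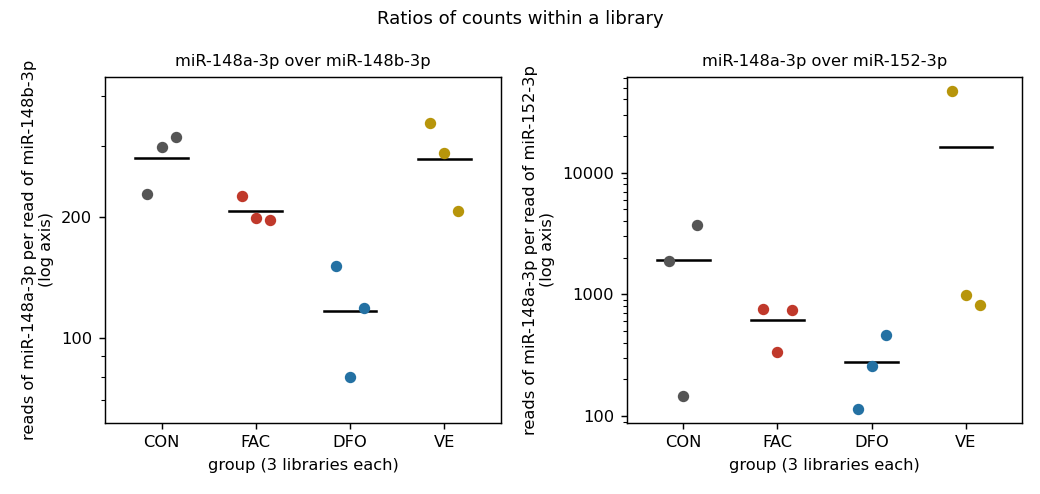
Reads of mmu-miR-148a-3p per read of mmu-miR-148b-3p and per read of mmu-miR-152-3p (log axes) in the 3 libraries of each group, with points for libraries and bars for group means. The 3 DFO libraries hold 80.0 to 151 reads of mmu-miR-148a-3p per read of mmu-miR-148b-3p, below the 9 others, whose lowest is 196.

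FAC against DFO, which differ in the chelator added to the same iron, was the comparison that chose the family. The fitted level of mmu-miR-148a-3p was 4.15-fold higher in FAC, a log2 difference of 2.05 ± 0.38 (SE, edgeR), and that of mmu-miR-148b-3p was higher by 1.10 ± 0.92. For mmu-miR-152-3p the difference was 0.74 ± 1.16, smaller than its error. In CPM, the FAC and DFO libraries of mmu-miR-148a-3p and of mmu-miR-148b-3p did not overlap, which was so in 16.6% of the tested entries, and edgeR's quasi-likelihood test called 0.914% of entries in this comparison. Scaled to all reads of the library the differences were 3.41, 2.28 and 1.96, so the direction was the same on both scales.

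FAC against CON addresses the addition of iron alone. On the scale of miRNA counts, mmu-miR-148a-3p was 1.53-fold higher in FAC, a log2 difference of 0.61 ± 0.37 (SE) that dropped to 0.05 without FAC replicate 1. The level of mmu-miR-148b-3p differed by 0.98 ± 0.92 (95% interval -0.83 to 2.78; edgeR's adjusted p = 0.607), and that of mmu-miR-152-3p by -0.02 ± 1.16 (-2.30 to 2.25; adjusted p = 1). Without CON replicate 2 the latter was 2.87. Of the 2 members tested, 0 were called by edgeR's quasi-likelihood test against 0.183% of all entries, and 0 had an unadjusted p under 0.05 against 9.51%. In CPM, mmu-miR-148b-3p was the only member whose FAC and CON libraries did not overlap, as for 13.3% of entries.

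Scaled to all library reads, the same comparison put mmu-miR-148a-3p higher in FAC by 3.88, mmu-miR-148b-3p by 4.14 and mmu-miR-152-3p by 3.94. On that scale mmu-miR-148b-3p (edgeR's adjusted p = 0.00443) and mmu-miR-152-3p (adjusted p = 0.0345) rose, where edgeR called 16.3% of all entries. With limma on log2(RPM + 1), mmu-miR-148b-3p rose by 4.07 (adjusted p = 0.00272) and mmu-miR-152-3p by 3.93 (adjusted p = 0.0240), where 23.4% of all entries were called. The call of mmu-miR-152-3p was lost with limma on log2(RPM + 0.1) (adjusted p = 0.0511). The median over the 547 tested entries moved with the scale too, from 1.38 to 4.35 in edgeR's fits, both above all 3 members. In the limma fits it was 0.96 with a pseudocount of 1 and 2.08 with 0.1, both below all 3 members, so the place of the members among all entries depended on the fit. edgeR's median includes many low entries, and over the 312 entries kept by a stricter filter it was 0.08 relative to miRNA counts.

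FAC against VE differ in VITE. mmu-miR-148a-3p was 1.67-fold higher in FAC relative to miRNA counts, a log2 difference of 0.74 ± 0.37 (SE), and the difference was 2.16 relative to all reads. It ranged from 0.34 to 1.14 when single libraries were left out. mmu-miR-148b-3p differed by 1.06 ± 0.92 (95% interval -0.75 to 2.86; edgeR's adjusted p = 0.548) and mmu-miR-152-3p by 1.79 ± 1.19 (-0.55 to 4.13; adjusted p = 0.521). Neither was called, where edgeR called 0.366% of entries, and 0 of 2 had an unadjusted p under 0.05, where 9.32% of entries had. FAC lay above VE with no overlap in CPM for mmu-miR-148b-3p and mmu-miR-152-3p, as 14.6% of entries lay apart.

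DFO against CON sets iron with chelator against untreated cells, and it reuses the DFO libraries of the comparison that chose the family. Relative to miRNA counts, mmu-miR-148a-3p in DFO was at 0.369 of its CON level, a log2 difference of -1.44 ± 0.37 (SE) that stayed between -1.77 and -1.34 when single libraries were left out, but was 0.47 relative to all reads of the library. mmu-miR-148b-3p differed by -0.13 ± 0.91 (95% interval -1.91 to 1.66; edgeR's adjusted p = 1), and by 1.86 relative to all reads. mmu-miR-152-3p differed by -0.77 ± 1.17 (-3.06 to 1.52; edgeR's adjusted p = 0.932), by 1.99 relative to all reads, and by 2.10 without CON replicate 2. Of these 2 tested members 0 were called, against 0.548% of entries, and 0 had an unadjusted p under 0.05, against 7.68%. Only mmu-miR-148a-3p had DFO and CON libraries that did not overlap in CPM, which held for 6.03% of entries.

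DFO against VE compares the chelator with the antioxidant under the same iron. mmu-miR-148a-3p in DFO was at 0.403 of its VE level, a log2 difference of -1.31 ± 0.37 (SE), and it lay below VE in CPM with no overlap, as 13.7% of entries lay apart. In RPM the DFO and VE libraries overlapped. mmu-miR-148b-3p differed by -0.05 ± 0.91 (95% interval -1.83 to 1.74; edgeR's adjusted p = 1), which turned to 0.14 relative to all reads, and mmu-miR-152-3p by 1.05 ± 1.17 (-1.25 to 3.35; adjusted p = 0.803). These 2 members gave 0 calls where edgeR called 1.46% of entries, and 0 unadjusted p under 0.05 where 11.9% of entries had one.

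VE against CON uses neither FAC nor DFO libraries, so all 3 members were tested there. mmu-miR-148a-3p differed by -0.13 ± 0.36 on the log2 scale (SE; 95% interval -0.84 to 0.59; edgeR's adjusted p = 1), a fold of 0.915. mmu-miR-148b-3p differed by -0.08 ± 0.91 (-1.87 to 1.71; edgeR's adjusted p = 1) and mmu-miR-152-3p by -1.82 ± 1.20 (-4.16 to 0.53; adjusted p = 0.533). Relative to all reads all 3 turned positive, at 1.72, 1.72 and 0.83, and without CON replicate 2 mmu-miR-152-3p was at 0.84. Of 3 members 0 were called where 2.01% of entries were, 0 had an unadjusted p under 0.05 where 10.4% had, and 0 had libraries that did not overlap in CPM where 13% had. The interval of mmu-miR-148a-3p was the narrowest of the members. DESeq2 also called 0 of the tested members in these 5 comparisons, where it called 7.55% of the entries to which it gave an adjusted p in FAC against CON, 5.54% in FAC against VE, 3.47% in DFO against CON, 5.54% in VE against CON and 10.6% in DFO against VE.

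**Figure D4:**
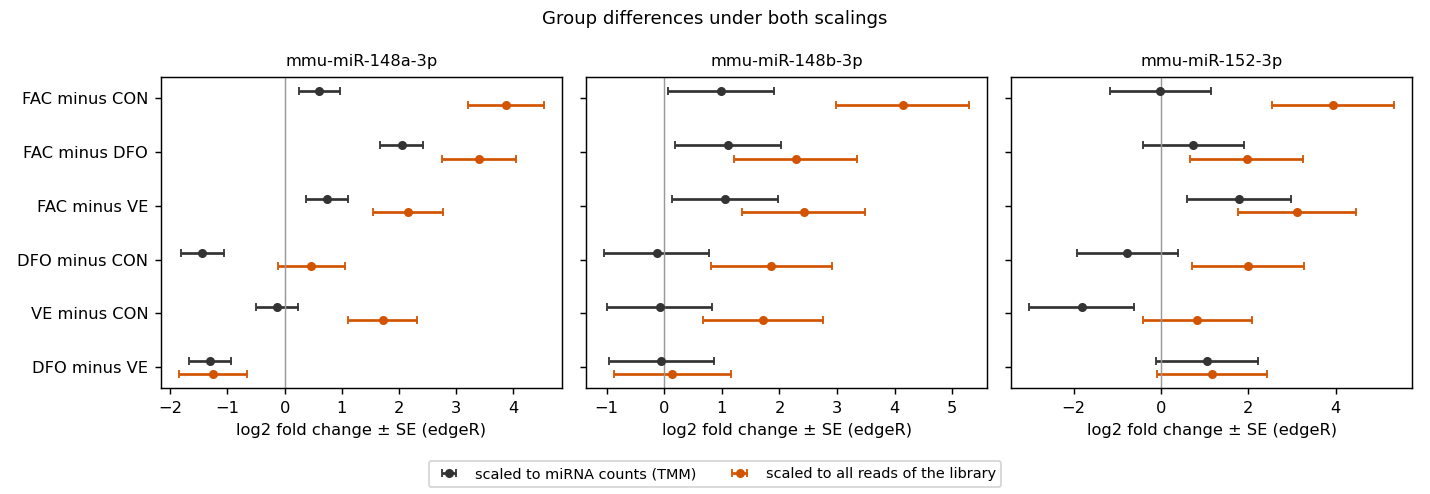
Log2 fold changes with SE (edgeR, all 12 libraries in the fit) of each family member in 6 comparisons, scaled to miRNA counts by TMM or to all reads of the library. mmu-miR-148a-3p in DFO minus CON is -1.44 on the first scale and 0.47 on the second, and FAC minus CON moves from 0.61 to 3.88.

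The other arms of the hairpins were read rarely, and mostly in FAC. The run of 11 bases common to the ends of mmu-miR-148a-5p and mmu-miR-152-5p is shorter than the shortest reads, 15 bp. It is in capitals in their sequences.
mmu-miR-148a-5p: aaaguucugagACACUCCGACU
mmu-miR-152-5p: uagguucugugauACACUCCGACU

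mmu-miR-148a-5p had 0, 1 and 3 counts in CON, 277, 155 and 202 in FAC, 2, 1 and 93 in DFO, and 0 in all VE libraries. All FAC libraries lay above all others in counts, but in normalized CPM DFO 3 was the highest, at 69.8 against 20.7 to 41.0 in FAC. Its FAC mean of 31.4 CPM was at least 27.8-fold higher than the mean floor of 3 counts in each VE library, 1.13 CPM. mmu-miR-152-5p had 0, 0 and 1 counts in CON, 72, 23 and 245 in FAC, 0 in all DFO libraries, and 0, 1 and 101 in VE. Its FAC libraries held 8.43, 3.07 and 49.8 CPM, so their mean of 20.4 CPM rested mostly on FAC 3. That mean was at least 16.0-fold higher than the mean floor of DFO, 1.27 CPM, and VE 3 lay within the FAC range. edgeR's quasi-likelihood test called neither arm in any of the 6 comparisons (adjusted p 0.322 to 0.970), with 4 of these 12 tests at an unadjusted p under 0.05. Of these, 1 was in FAC against DFO, where 12.2% of all entries had one, 1 in FAC against VE (9.32%) and 2 in DFO against VE (11.9%). DESeq2 called mmu-miR-148a-5p lower in VE than in FAC (adjusted p = 0.00384) and than in DFO (DESeq2's adjusted p = 0.00800), the latter resting on the 93 counts of DFO 3, and mmu-miR-152-5p higher in FAC than in DFO (DESeq2's adjusted p = 0.0339). Among entries given an adjusted p, it called 5.54% in FAC against VE, 10.6% in DFO against VE and 14.8% in FAC against DFO. FAC against DFO also chose the family, so tests of the other arms there may not be independent of that choice. The FAC libraries were also those with the most miRNA counts.

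Relative to its guide arm, mmu-miR-152-5p reached 41.5 reads per 100 of mmu-miR-152-3p in FAC 3 and 30.4 in VE 3, and the other libraries lay below these. mmu-miR-148a-5p stayed at or below 0.152 reads per 100 of mmu-miR-148a-3p in all 12 libraries. The 2 hairpins thus differed in how much of the other arm was read, with the value of mmu-miR-152-5p resting on those libraries.

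**Figure D5:**
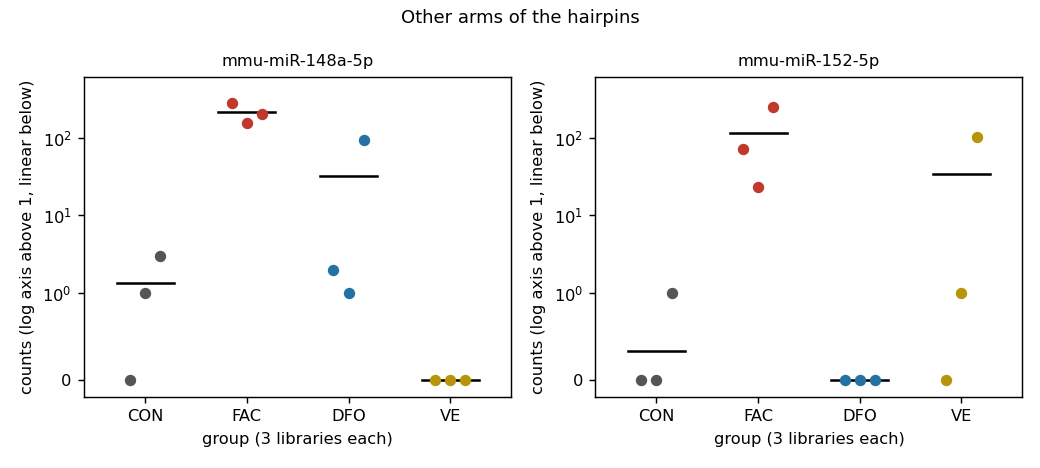
Counts of mmu-miR-148a-5p and mmu-miR-152-5p (log axis above 1, linear below) in the 3 libraries of each group, with points for libraries and bars for group means. mmu-miR-148a-5p has 155 to 277 counts in FAC and 0 in VE, and mmu-miR-152-5p has 23 to 245 counts in FAC and 0 in DFO, with counts not corrected for depth.

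Few relatives by part of the seed were present. Another 9 mature mouse sequences hold the letters AGUGCA within bases 2 to 8, and together with the family they are 0.715% of the RefSeq table. Of these, mmu-miR-130a-3p and mmu-miR-130b-3p had entries, with 398 and 500 counts over all 12 libraries. Their group means were 0 to 26.6 CPM, below those of the family. edgeR called neither in any comparison, with 1 of 12 tests at an unadjusted p under 0.05, in DFO against VE, where 11.9% of all entries had one. DESeq2 called mmu-miR-130a-3p higher in DFO than in VE (adjusted p = 0.0207), where it called 10.6% of the entries given an adjusted p. Among the family and these 2 entries, mmu-miR-148a-3p supplied nearly all reads. Only the 549 of 637 entries that matched the RefSeq table could be searched in this way.

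The entries whose level followed a member most closely over the 12 libraries were looked up among 160 entries with at least 10 counts in at least 9 libraries. Libraries share depth and composition, so these correlations of log2 CPM are descriptions. mmu-miR-148a-3p was most like mmu-miR-10b-5p (Spearman 0.909, Pearson 0.847), mmu-miR-24-3p (0.881, 0.778) and mmu-miR-3074-5p (0.846, 0.686). mmu-miR-10b-5p stood at 39698 ± 16724 CPM in CON, 42514 ± 7672 in FAC, 21449 ± 6421 in DFO and 35694 ± 12093 in VE (SD, n = 3). Its mean too was lowest in DFO, but its DFO libraries, 15778 to 28420 CPM, overlapped CON (from 22357) and VE (from 22395). The DFO libraries of mmu-miR-24-3p held 745 to 1064 CPM, below all others, the lowest of which held 1090 in CON. Both entries were picked by likeness over these same libraries, so a shared low in DFO follows in part from that choice. mmu-miR-148b-3p came only 12th in likeness to mmu-miR-148a-3p (0.699, 0.708), and mmu-miR-152-3p came 63rd (0.280, 0.134).

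mmu-miR-148b-3p was most like mmu-miR-322-3p (0.888, 0.761), mmu-miR-28a-3p (0.853, 0.755) and mmu-miR-503-3p (0.839, 0.823), with mmu-miR-148a-3p at place 10. mmu-miR-322-3p stood at 298 ± 190.0 CPM in CON, 763 ± 220 in FAC, 203 ± 128 in DFO and 302 ± 142 in VE (SD, n = 3). mmu-miR-152-3p was most like mmu-miR-1843a-5p (0.944, 0.972), then mmu-miR-30e-3p (0.685, 0.649) and mmu-miR-192-5p (0.664, 0.508). Like mmu-miR-152-3p, mmu-miR-1843a-5p was lowest in VE 1, with 0.903 CPM, and spread widely in CON, from 22.0 to 221 CPM. The members with the same seed were thus not each other's nearest entries in level.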

How the data were processed

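Small RNA of granulosa cell exosomes was sequenced on an Illumina HiSeq 2500 with reads of 15 to 41 bp, in 12 libraries. The authors deposited, for each library, raw counts per miRNA entry (637 entries, 5 of them joined miRNAs) and RPM, which the files name TPM and which is counts per 1000000 of a library total that the 2 values imply. The submitters' processing notes name the build mm9. The aligner, trimming, miRNA database and treatment of mismatches are not given in the sources used here. The longest run of bases shared by 2 members was 12, shorter than the shortest reads of 15 bp. A read could therefore match several members only with mismatches, which could move counts between members. Sequences and positions are from RefSeq (GRCm38.p6; 549 of 637 entries matched) and GENCODE M21, since the files hold no positions.

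Counts were fitted in edgeR 4.0.16 (R 4.3.3) with TMM factors and the quasi-likelihood test, on all 12 libraries and 547 entries with at least 10 counts in all, with Benjamini-Hochberg adjustment over the 547 and calls at an adjusted p under 0.05. Its common biological coefficient of variation was 1.57. DESeq2 1.42.0, limma 3.58.1 on log2(RPM + 1) or log2(RPM + 0.1), other scalings and filters, and leaving out single libraries were alternatives. Scripts were tested on simulated data. In 66 library pairs, none agreed within sampling noise. Named entries were the members, the other arms of their hairpins, entries with AGUGCA in bases 2 to 8, and the 3 entries most like each member by Spearman correlation. miR-148b-5p was not analysed here. The members, lists and tests were chosen with earlier results of these data known.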

Additional observations from a re-analysis of the deposited data

How the results depend on the processing

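Log2 differences are given here. The alternative values also include the percent share of mmu-miR-148a-3p in the family's counts. That share has no threshold and was counted as unchanged in every case. In 4 of these cases it came from RPM and could not differ, since a share within a library does not depend on scaling. Of 304 alternative values, 241 stayed on their side of the threshold with the same direction or within the spread, 3 passed the threshold in the same direction, 44 turned direction (2 of them also past the threshold) and 16 moved by more than the spread between replicates. Scaling also shifted the median of all entries, by 2.976, 1.22, 1.251, 1.447, 0.987 and 0 from miRNA counts to library totals in FAC-CON, FAC-DFO, FAC-VE, DFO-CON, VE-CON and DFO-VE, the order of every list of counts below.

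For mmu-miR-148a-3p, mmu-miR-148b-3p and mmu-miR-152-3p in that order, library totals gave 3.88, 4.14 and 3.94 in FAC-CON, 3.41, 2.28 and 1.96 in FAC-DFO, 0.47, 1.86 and 1.99 in DFO-CON, and 1.72, 1.72 and 0.83 in VE-CON. They gave 2.16 for mmu-miR-148a-3p in FAC-VE and 0.14 for mmu-miR-148b-3p in DFO-VE. limma on log2(RPM + 1) gave 3.81, 4.07 and 3.93 in FAC-CON, 3.28, 2.37 and 1.92 in FAC-DFO, 0.53, 1.71 and 2.01 in DFO-CON, 1.85, 1.74 and 0.53 in VE-CON, and 1.96 for mmu-miR-148a-3p in FAC-VE. limma on log2(RPM + 0.1) gave 3.81, 4.22 and 4.51 in FAC-CON (for mmu-miR-148b-3p limma's adjusted p = 0.0103, for mmu-miR-152-3p 0.0511), 3.28, 2.41 and 2.01 in FAC-DFO, 0.53, 1.82 and 2.50 in DFO-CON, 1.85, 1.86 and 0.29 in VE-CON, and 1.96 for mmu-miR-148a-3p in FAC-VE.

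Values near 0 turned with smaller choices. mmu-miR-148b-3p in DFO-VE became 0.16 with RLE factors, 0.11 with total miRNA counts, 0.06 with no filter, 0.12 with filterByExpr, 0.09 with the 2 groups alone and 0.16 with DESeq2. Total miRNA counts gave 0.03 for mmu-miR-148b-3p in DFO-CON and 0.49 for mmu-miR-152-3p in FAC-CON, which was 0.14 with no filter. The cause of these turns was not tested.

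Leaving out single libraries gave mmu-miR-148a-3p 0.05 to 0.93 in FAC-CON, 1.49 to 2.39 in FAC-DFO, 0.34 to 1.14 in FAC-VE, -1.77 to -1.34 in DFO-CON, -0.25 to 0.02 in VE-CON and -1.64 to -1.10 in DFO-VE. It gave mmu-miR-148b-3p 0.51 to 1.25, 0.65 to 1.34, 0.74 to 1.42, -0.36 to 0.11, -0.35 to 0.18 and -0.31 to 0.31, and mmu-miR-152-3p -0.50 to 2.87, 0.43 to 1.25, 1.22 to 2.29, -1.31 to 2.10, -2.44 to 0.84 and 0.48 to 1.52, in the same order of comparisons.

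Libraries with the same replicate number did not deviate together (mean correlation 0.00421 over 18 pairs, against -0.00202 over 36 pairs with different numbers). Whether libraries of the same number share an animal or culture is not given, and these correlations over all entries cannot settle it. The replicate block turned mmu-miR-152-3p to 0.74 in FAC-CON and 0.18 in DFO-CON, and edgeR then called 2, 3, 3, 0, 2 and 6 entries against 1, 5, 2, 3, 11 and 8. Other counts of calls were 16, 12, 5, 3, 14 and 8 with RLE factors, 2, 6, 3, 0, 8 and 8 with total miRNA counts, 89, 15, 6, 17, 16 and 0 with library totals, 1, 7, 4, 2, 12 and 10 with no filter, 0, 6, 0, 0, 2 and 1 with filterByExpr, 6, 10, 3, 2, 9 and 20 with the 2 groups alone, 21, 43, 19, 13, 19 and 33 with DESeq2, and 128, 29, 3, 7, 33 and 0 or 114, 11, 5, 1, 7 and 1 with limma at a pseudocount of 1 or 0.1. With 3 libraries a group, edgeR's intervals of mmu-miR-148b-3p and mmu-miR-152-3p span several fold. edgeR's fit shares its estimate of spread between entries. For mmu-miR-148b-3p in FAC-CON its SE was 0.92, against 0.46 in DESeq2. The SD of this member's log2 CPM within those groups was 0.52.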
